A study of Rattus norvegicus with 48 samples.

Results

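A set of 323 genes had lower RNA levels in the fat of late-exercised rats than in late sedentary rats, in both of the depots sampled. They were found among 23481 gene IDs, of which 13574 reached a mean of 1 CPM (a gene's count rescaled by its library total, without regard to gene length) over the 48 libraries. Levels were taken as log2(CPM + 0.5). A member had to lie, in each of subcutaneous late exercise replicates 1, 2, 3 and 5, below all 6 subcutaneous late control libraries. It also had to have a mean difference, exercise minus control, of -0.3 or less in the subcutaneous depot (those 4 libraries against 6) and of -0.15 or less in the visceral depot (6 against 6). The members were thus selected on their late exercise differences, and these are given below as a description with no test.

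The rats were adolescent males, either sedentary or exercised at a fixed time of day, and RNA came from subcutaneous adipose tissue (SAT) or visceral adipose tissue (VAT). The groups were early active phase control (EAC), early active phase exercise (EAE), late active phase control (LAC) and late active phase exercise (LAE), with 6 libraries of each depot per group. The phases correspond to zeitgeber times, counted in hours from lights on, of 13 and 23. The fat was collected at postnatal day 61, with 24 h between the final session and collection, so no library shows the hours during or just after a bout. The labels used here give neither the strain nor the kind of exercise.

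Fat depots store triglyceride in adipocytes and release it as fatty acids when energy is needed, as during physical activity. The subcutaneous depot lies under the skin and the visceral depot among the organs of the abdomen, and they differ in cell make-up and metabolism. Adipose tissue holds a circadian clock, so that many transcripts vary over the day and the sedentary rats of the same phase are the comparison for exercise. Each library is made from a whole piece of tissue, with adipocytes, vessels, immune cells and progenitors together. Fewer cells of a type and less RNA per cell cannot be told apart in such samples.

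Genes carry Ensembl IDs in the deposited counts. A rat gene table gave a symbol for 0 of them, so the members have no symbols below, the labelled tissue was not checked against marker genes, and no promoter sequence is printed. The members with the largest mean difference are given by their IDs and the others by their rank.

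Library totals lay between 13163675 and 17890033 counts. SAT late exercise replicates 4 and 6 stood apart from their depot, with median rank correlations of 0.803 and 0.814 with its other libraries, against 0.951 to 0.976 for the remaining 22. The rule left them out of the SAT difference. In VAT, early control replicate 5 (0.947) and early exercise replicate 3 (0.94) stood apart, against 0.976 to 0.984 for the remaining 22. The tests below are therefore also given without these 4 libraries where that changed a result.

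By CPM the members spanned low and high genes. Their mean level over all libraries ran from 1.24 to 6700 CPM, with a median of 23.7 CPM and quartiles of 10.1 and 69 CPM, beside a median of 20.8 CPM for all 13574 genes. Of the members 49 lay under 5 CPM, 94 from 5 to 20, 120 from 20 to 100 and 60 at 100 CPM or more. The last class made up 18.6% of the members and 12.1% of all genes of 1 CPM or more. Together the members took between 1.73% (SAT late exercise replicate 4) and 4.4% (SAT late control replicate 1) of a library's counts.

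In SAT the median member was lower by 0.52 on the log2 scale in the 4 late exercise libraries than in the 6 late control libraries, a level 30.1% lower. The differences ran from -1.65 to -0.3, with 174 members at -0.5 or less and 27 at -1 or less. In VAT the differences were smaller, with a median of -0.25 (15.9% lower), a lowest value of -0.76, 14 members at -0.5 or less and 0 at -1 or less. The SAT difference was the larger in 317 of the 323. The rule favours this order, because its threshold was stricter in SAT and it required separation of the groups in SAT only. Whether the depots differ in the size of the late difference was not tested. All genes of 1 CPM or more had a median of -0.12 in SAT and -0.08 in VAT on the same scale, so the members lay 0.4 and 0.17 below the typical gene. The 10 genes with the most counts took a median of 15.4% of the counts in SAT late control and 18.3% in SAT late exercise, and what this adds to the differences was not tested. With TMM library sizes, which scale libraries on their typical gene instead of on the total, these all-gene medians moved up by 0.11 and 0.08. The members' medians were then -0.40 and -0.18, and 92 of the 323 passed the rule. Each of the 323 had a difference below 0 in both depots. The selection largely fixed this, because the shifts were smaller than the thresholds of the rule.

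**Figure D1:**
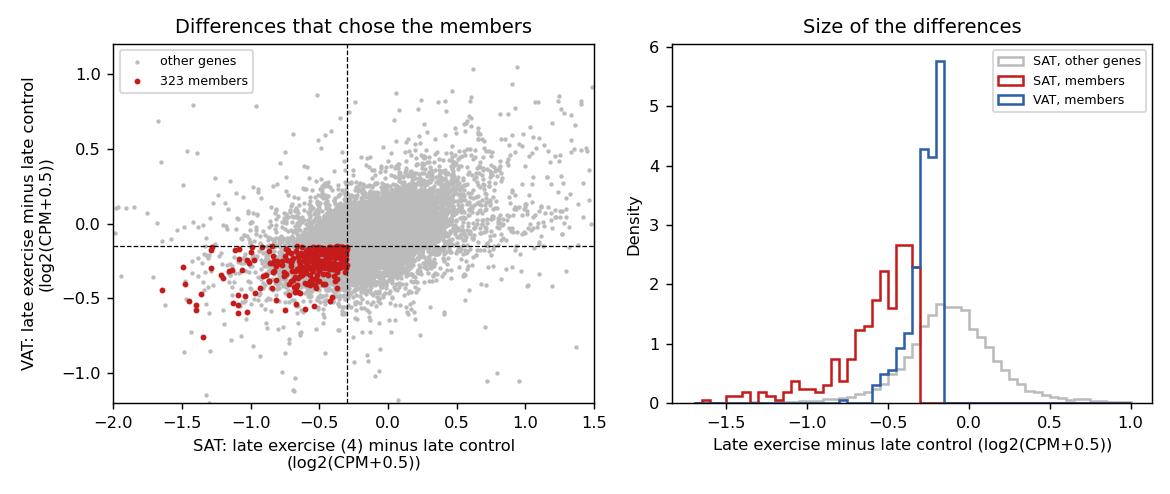
Left, each point is a gene of 1 CPM or more, with its late exercise minus late control difference in SAT (x axis, 4 libraries against 6) and in VAT (y axis, 6 against 6), both in log2(CPM + 0.5); dashed lines mark the thresholds of -0.3 and -0.15, and a few genes outside the axis limits are not drawn. Right, the density of these differences for the members in SAT (median -0.52) and in VAT (median -0.25) and for the other genes in SAT.

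Of the 13574 genes, 4.6% passed the separation of the SAT groups, 23.4% the SAT difference, 30.5% the VAT difference and 2.38% the whole rule. Both SAT steps were passed by 3.63% of the genes, and 65.5% of these also passed the VAT step. The same rule turned upwards found 68 genes. On this column-total scale 68.1% of all genes in SAT and 70.9% in VAT had a difference below 0, which favours the downward rule. With TMM library sizes these shares were 50.9% in SAT and 50.9% in VAT. The upward rule was not run with TMM library sizes. The members closest to the SAT threshold had differences of -0.302 and -0.302 and the nearest genes outside it -0.299 and -0.298. At the VAT threshold the members had -0.1502 and -0.1516 and the genes outside it -0.1496 and -0.1485. The members of lowest CPM had 1.24 and 1.38 CPM, and the genes of highest CPM that failed only on this minimum had 0.954 and 0.945 CPM. With TMM library sizes 92 genes passed the rule, all of them among the 323. The number was 213 without VAT late control replicate 4, 564 without SAT late control replicate 5, and 504 or 744 without SAT late exercise replicate 3 or 5.

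The member with the highest mean CPM stood at 11892, 10567, 12377, 11199, 11634 and 10982 CPM in the SAT late control libraries. In SAT late exercise replicates 1, 2, 3 and 5 it stood at 7635, 8164, 4175 and 8404 CPM, and in replicates 4 and 6, which the rule did not use, at 1842 and 2794 CPM. All 6 exercised libraries thus lay under the lowest control, with replicates 4 and 6 the lowest. In early rats of the same depot it had a mean of 9222 ± 1043 CPM in control and 9992 ± 1974 CPM in exercise (SD, n = 6 each), so the early means lay between the late ones. In VAT it went from 4637 ± 967 CPM in late control to 3669 ± 691 CPM in late exercise (SD, n = 6 each), and these VAT groups overlapped.

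The member second in CPM had 3465, 3596, 3461, 3107, 2790 and 2930 CPM in SAT late control. The 4 late exercise libraries used by the rule had 2058, 2345, 2159 and 2146 CPM, and replicates 4 and 6 had 507 and 1009 CPM. Here late control (mean 3225 CPM) was close to early control (3202 CPM), and the late exercise libraries were the low ones. In VAT late exercise its values were 2077, 1696, 2001, 2009, 1703 and 2720 CPM, against 2224 to 3002 CPM in late control. Replicate 6 alone of the exercised VAT libraries lay within the control range.

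ENSRNOG00000004706 had the largest SAT difference of the members, -1.65, a rank that rested on late exercise replicate 3. Without that library the difference was -1.12, rank 13 of the 323. Its SAT late control values were 8.09, 8.18, 6.62, 7.86, 4.16 and 7.89 CPM, and its late exercise values were 3.11, 3.26, 0.296, 3.14, 2.47 and 3 CPM in replicates 1 to 6. Replicate 3 was far under the others, and the 6 exercised libraries lay below every control. In VAT the late exercise values ran from 1.61 to 5.44 CPM and the late control values from 3.19 to 5.57 CPM, with overlap. Early rats had 4.61 ± 1.66 CPM in SAT control and 5.58 ± 2.03 CPM in SAT exercise (SD, n = 6 each).

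ENSRNOG00000048953 had the lowest mean of the SAT and VAT differences but also the lowest mean level, at 1.24 CPM. It had 0 counts in SAT late exercise replicates 1, 3, 4 and 5 and 0.731 CPM in replicate 2, against 0.733 to 1.49 CPM in late control. It also had 0 counts in 3 of the 6 SAT early control libraries and in 2 of the 6 SAT early exercise libraries. In VAT it lay between 1.36 and 5.73 CPM in late control and between 0 and 4.81 CPM in late exercise. A value of 0 was therefore common outside the late exercise group too, and at these levels a few counts set the difference.

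**Figure D2:**
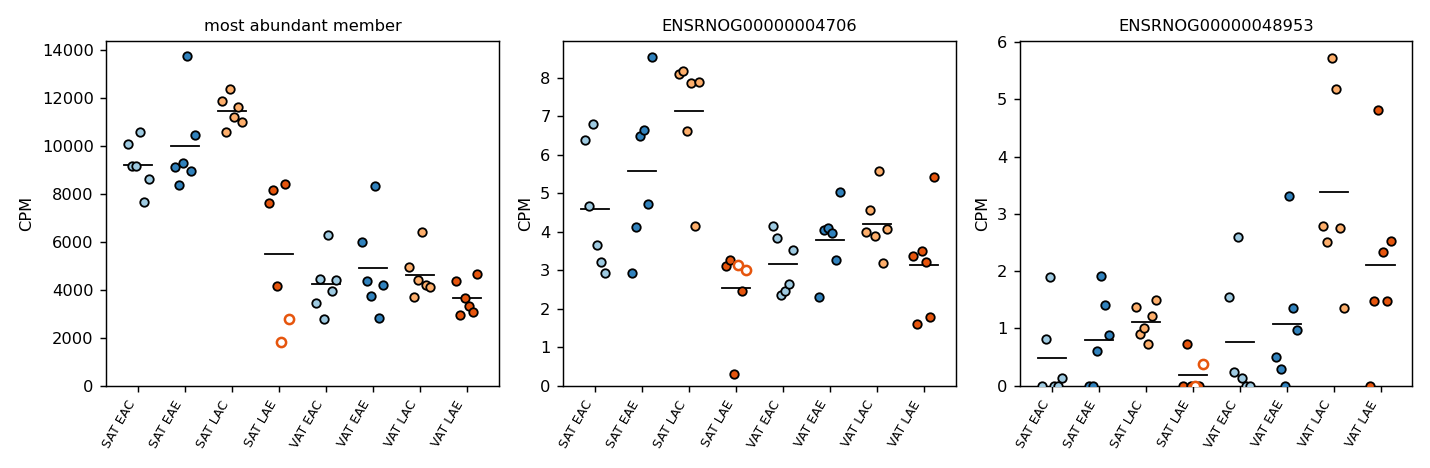
CPM of 3 members in each of the 48 libraries, on linear axes from 0; points are libraries, bars are group means (n = 6), and open points are SAT late exercise replicates 4 and 6, which the rule did not use. The member of highest CPM lies at 1842 to 8404 CPM in SAT late exercise and at 10567 to 12377 CPM in SAT late control.

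SAT late exercise replicates 4 and 6 were not used for the SAT difference, but they are compared with the same controls. Against the late control mean the median member was at -0.44 in replicate 4 and at -0.32 in replicate 6, where all genes of 1 CPM or more had medians of 0.08 and 0.22. With TMM library sizes the members' medians were -0.49 and -0.52, against 0.03 and 0.02. In replicate 4, 197 members (61%) lay below every late control, beside 32.9% of all genes. In replicate 6, 171 members (52.9%) did, beside 27.6%. The shares that lay above every control were 17% and 25.4% of the members, beside 40.9% and 48% of all genes.

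These libraries parted the members into classes. Both lay below every control for 165 members (25.6% of all genes), both above every control for 49 (37.9% of all genes), and the other 109 lay between or were mixed. The first class had medians of -1.29 in replicate 4 and -1.09 in replicate 6, well past its median of -0.56 in the 4 libraries of the rule. The class above had 0.71 and 0.79, opposite to its -0.43 in the other libraries. At 1 end, a member stood at 12.3 and 37 CPM in replicates 4 and 6, against 82.3 to 141 CPM in the other late exercise libraries and 153.5 to 295 CPM in late control. At the other end, 1 member stood at 695 and 699 CPM in replicates 4 and 6 but at 18.9 to 20.7 CPM in the other late exercise libraries and 21.6 to 44.3 CPM in late control. The same member had 221 CPM in VAT early control replicate 5 and 240 CPM in VAT early exercise replicate 3, against 0.182 to 55.5 CPM in the other early VAT libraries. It was thus at its highest in the 4 libraries that stood apart.

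In VAT the groups were seldom separated member by member, although the mean difference was set by the rule. All 6 late exercise libraries lay below all 6 late controls for 4 members, where 0.413% of all genes did so in this contrast, which the rule used. At least 3 of the 6 did for 214 members and none for 13. These counts were not made over all genes, so they describe the members only. By library, 182, 254, 159, 141, 239 and 17 members lay below every late control in replicates 1 to 6, beside 21.2%, 34.9%, 25.7%, 22.2%, 38.2% and 7.4% of all genes. Relative to early control, the median member stood at -0.24, -0.37, -0.22, -0.16 and -0.34 in VAT late exercise replicates 1 to 5 and at 0.07 in replicate 6. The late control libraries ran from -0.08 to 0.36, so replicate 6 lay within their range and the other 5 below it. Among the 4 separated members, 1 had VAT late exercise values of 17.3, 14.8, 14.5, 13.4, 13.6 and 16.4 CPM and late control values of 21, 20.2, 18.4, 22.4, 19.2 and 20.2 CPM. In SAT the same gene had 14.7, 20.4, 13.3, 7.79, 12.3 and 10 CPM in late exercise and 21.2 to 29.2 CPM in late control, so it was separated with all 6 exercised libraries in both depots.

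The share of counts taken by the 10 genes with the most counts ran from 19.8% to 25.2% in VAT late exercise and from 16.1% to 23.4% in VAT late control. VAT late control replicate 4 had the lowest such share (16.1%) and the highest member level. The part of this share in the VAT differences was not tested.

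**Figure D3:**
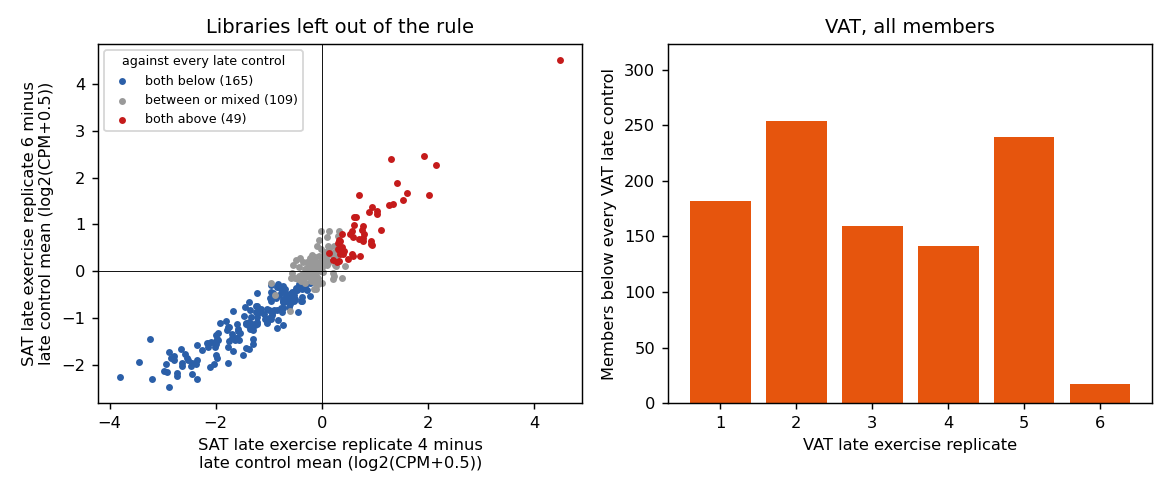
Left, each point is a member, with its level in SAT late exercise replicate 4 (x axis) and replicate 6 (y axis) minus the SAT late control mean, in log2(CPM + 0.5); 165 members lie below every control in both, 49 above every control in both and 109 elsewhere. Right, bars give the number of the 323 members below every VAT late control in each VAT late exercise library, from 17 in replicate 6 to 254 in replicate 2.

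Early control rats gave a reference that did not enter the differences of the rule. In SAT the 4 late exercise libraries had a lower mean than early control for 296 members, and late control a higher mean than early control for 235. Both held for 208. The same was true of 61.2%, 54.8% and 24.7% of all genes, and of 91.6%, 72.8% and 64.4% of the members. The median member stood at -0.37 in late exercise and at 0.17 in late control relative to early control, beside -0.08 and 0.02 for all genes. For 75 members the 4 late exercise libraries lay below all 12 early SAT libraries (3.82% of all genes), and for 31 the late controls lay above all 12 (2.18%). In VAT the medians were -0.21 in late exercise and 0.04 in late control, beside -0.08 and -0.01 for all genes. The late control value was -0.04 without VAT late control replicate 4 and -0.01 without VAT early control replicate 3, so its sign rested on single libraries. Late exercise was lower than early control in VAT for 257 members (79.6%, beside 64% of all genes), late control higher for 189 (58.5%, beside 48.3%), and both for 123 (38.1%, beside 17.6%). With TMM library sizes the members' medians were -0.29 and 0.14 in SAT and -0.13 and 0.05 in VAT. The rule favours low late exercise and high late control values, so these shares describe its members and test nothing.

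**Figure D4:**
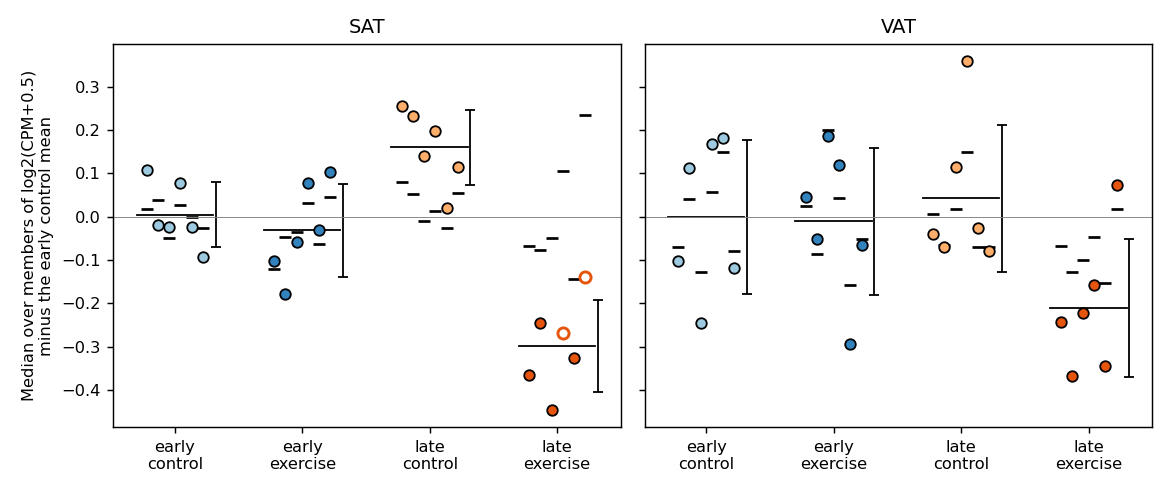
Each point is a library and gives the median over the 323 members of log2(CPM + 0.5) minus the early control mean of the same depot; short black dashes give the same median over all genes of 1 CPM or more, long lines and error bars are group mean and SD (n = 6), and open points are SAT late exercise replicates 4 and 6. SAT late exercise libraries lie between -0.45 and -0.14 and SAT late control between 0.02 and 0.25, while the VAT groups overlap.

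The early libraries entered the choice of members only through the CPM minimum over all 48 libraries, not through the differences or the separation. Exercise at the early phase was tested with edgeR's quasi-likelihood test over all genes. In SAT 0 of the 323 members passed an adjusted p of 0.05, as did 0.0% of the 14372 genes tested. The median member had a log2 change of 0.006 (quartiles -0.06 and 0.07), and the median of all tested genes was 0.002. Of the members 167 were higher and 156 lower after early exercise. At an unadjusted p under 0.05 there were 4 members, all higher, beside 0.911% of all genes. The fit included SAT late exercise replicates 4 and 6. Without them 7 members were higher and 2 lower at this p (edgeR), beside 282 of 14505 genes. With limma voom 10 were higher and 2 lower, beside 534 of 14372 genes. DESeq2 called 0 members and limma voom 0. The lowest log2 change of a member was -0.43, and 6 members (1.86%) were at -0.3 or less, beside 6.76% of all tested genes. The tested genes include some under the members' minimum of 1 CPM, so these shares come from unlike sets. What this adds to the contrast was not tested.

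In VAT early exercise also left 0 of the 323 members past the threshold, as it left 0.0% of the 13883 genes tested (edgeR). The median member had a log2 change of 0.003 (quartiles -0.07 and 0.07, median of all tested genes 0.007), with 165 higher and 158 lower. At an unadjusted p under 0.05 there were 4 members higher and 5 lower, beside 2.49% of all genes. Without the VAT libraries that stood apart 6 were higher and 6 lower, beside 578 of 13875 genes. DESeq2 and limma voom called 0 members each. A decrease in both depots was fitted for 91 members and an increase in both for 100.

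The 2 members named above were also not called. ENSRNOG00000004706 had a log2 change of 0.29 ± 0.35 (SE) in SAT and 0.26 ± 0.23 in VAT after early exercise, with edgeR adjusted p-values of 0.9998 and 0.9996. Early exercise in SAT had a median standard error of 0.165 over the members and in VAT of 0.122 (edgeR, with TMM library sizes). With TMM library sizes the members' median late differences were -0.40 in SAT and -0.18 in VAT. On the column-total scale, which is unlike that of these standard errors, they were -0.52 and -0.25. The SAT late differences also left out the late exercise libraries that stood apart, which the main SAT fit included. A missed threshold does not show that early exercise leaves these genes alike. Whether the late change exceeds the early one was not tested, because the late groups chose the members.

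The depots were compared in early rats, control and exercised together, 12 libraries of each depot. The members leaned to the subcutaneous side. The rule required separation of the groups in SAT only and had a stricter threshold there. Its CPM minimum over all 48 libraries could also be met through SAT alone. Selection may thus favour genes higher in SAT, and its part in this lean was not tested. Of the 323, 134 (41.5%) were lower in VAT than in SAT and 12 (3.72%) higher (edgeR, adjusted p under 0.05), beside 20.1% lower, 20.1% higher and 40.2% in either direction of the 14693 genes tested. The median member had a VAT minus SAT change of -0.19 (quartiles -0.38 and -0.04), and the median of all tested genes was -0.01. A change below 0 was fitted for 256 members (79.3%), beside 50.8% of all tested genes. Of the 323 members, 17 were called lower in VAT by over 2-fold and 2 higher by over 2-fold. Among the 14693 tested genes these were 757 (5.15%) and 447 (3.04%). The share of members lower by over 2-fold was thus close to that of all tested genes. The members called lower had a median change of -0.43. Without the 4 libraries that stood apart 164 members were lower and 19 higher, beside 27.8% and 23.5% of all genes. The main fit took SAT and VAT libraries as independent, although the same rats gave both depots. With the replicate number as a block 135 members were lower and 11 higher, beside 2899 and 2896 of the 14693 genes.

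The member furthest to the subcutaneous side had 23.1 ± 6.7 CPM in SAT early control and 30.7 ± 11.9 CPM in SAT early exercise, and 6.02 ± 4.72 and 6.19 ± 2.77 CPM in the same groups of VAT (SD, n = 6 each). Its VAT minus SAT change was -2.04 ± 0.21 (SE, edgeR adjusted p = 5.08e-10), with VAT early control replicate 5 the highest VAT library at 14.95 CPM. It also had the widest gap between the SAT late groups, at 9.57, 12.5, 8.15 and 8.84 CPM in late exercise replicates 1, 2, 3 and 5, at 10.6 and 18.3 CPM in replicates 4 and 6, and at 20.1 CPM or more in late control. In the opposite direction, 1 member had 14.8 ± 3.89 CPM in SAT and 40.6 ± 6.86 CPM in VAT early control (SD, n = 6 each), a change of 1.58 ± 0.15 (SE, edgeR adjusted p = 3.51e-11). The highest early SAT library of that gene had 21 CPM and the lowest early VAT library 29.8 CPM, so the depots did not overlap. The other member over 2-fold higher in VAT rested on VAT early control replicate 5 alone, at 32.2 CPM against 0.424 to 1.61 CPM in the other early VAT libraries.

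The classes set by SAT late exercise replicates 4 and 6 had different depot medians. Members below every control in both had a median VAT minus SAT change of -0.27, with 75 of 165 lower in VAT. Members above every control in both had -0.17, with 16 of 49 lower in VAT, and the remaining members had -0.14, with 43 of 109. These classes were formed after their values were seen, and their depot values were not compared by a test.

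**Figure D5:**
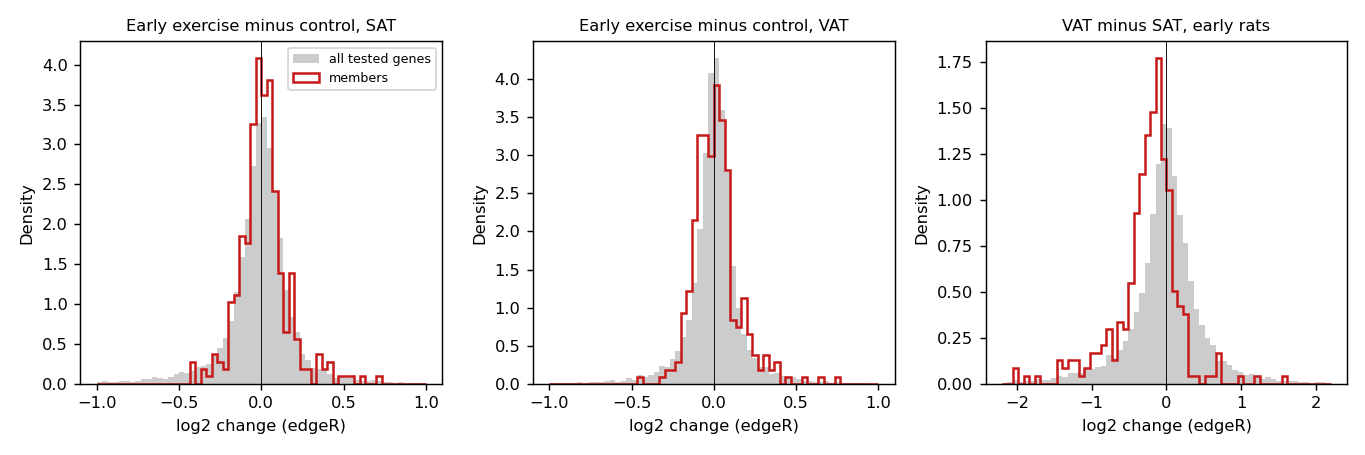
Density of edgeR log2 changes over the members (red outline) and all tested genes (grey) for early exercise in SAT, early exercise in VAT and VAT minus SAT in early rats; changes outside the axis limits are not drawn. The member medians are 0.006, 0.003 and -0.19.

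Among themselves the members varied together only in part. Over the 12 early SAT libraries, as deviations from group means, the median correlation between pairs of members was 0.223, beside 0.061 between pairs of all genes, and with TMM library sizes 0.12 beside -0.003. Over the 12 early VAT libraries it was 0.456 beside 0.229, and with TMM library sizes 0.136 beside 0. Pairs share the libraries and their scaling, and the values were lower with TMM. Without the atypical VAT libraries (10 left) the median was 0.519 beside 0.192, and 0.184 beside -0.002 with TMM.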

How the data were processed

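PolyA-selected RNA was sequenced as 50-nt single-end reads, from RNA with an integrity number over 9, per the labels' protocols. The authors deposited 1 table of estimated counts, whole numbers for each gene. The submitters' processing notes name Salmon 1.4.0 and rn6. For the annotation release, and for how transcripts were summed, the sources used here give no detail. All 48 columns matched a sample by library name.

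Members were selected on log2(CPM + 0.5). The members, lists and tests were chosen with earlier results of these data known. Gene lists by symbol were not used, because no ID could be paired with a symbol. The rule for named genes was thus reduced to the 2 IDs with the lowest mean of the SAT and VAT differences. Other members were described after their values were seen.

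Tests used edgeR 4.0.16 in R 4.3.3 on the counts as deposited: TMM, filterByExpr, quasi-likelihood fits (4 groups of 1 depot for exercise, all 8 for the depots), and Benjamini-Hochberg adjustment at 0.05. All 323 members passed the filter. Standard errors are the log2 change over the square root of F. On simulated counts with 200 changed genes the fit recovered 88.8% of 4-fold and 65.7% of 2-fold changes for early exercise in SAT (14241 genes), 96% and 80.8% in VAT (13789 genes), and 98% and 83.7% for the depots (14571 genes). Changes under 2-fold, such as the members' median late differences, were not simulated, so recovery at those sizes is not known. Alternatives were DESeq2 1.42.0, its size factors, limma 3.58.1 voom, no filter, fewer groups, a replicate block and left-out libraries.

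The labels give 6 rats per group. All 120 pairs of libraries within groups differed by more than sampling noise (chi-square per degree of freedom of 8.15 or more). P-values measure the spread between these libraries, and counts give counting precision only.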

Additional observations from a re-analysis of the deposited data

Results flagged for a closer look

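In 32 checks (4 measures in the 8 groups of 6 libraries), 2 found a library far from the rest of its group, where chance alone gives about 1 in 20. Both rest on late values that the rule used to choose the members, so that rate does not apply to them. SAT late exercise replicate 3 had 0.296 CPM of ENSRNOG00000004706, and the next lowest library of that group had 2.47 CPM. VAT late control replicate 4 had 3.35% of its counts in the members, and the next highest library of that group had 2.75%. That library is also the one without which the rule finds 213 genes in place of 323. No cause was tested for either value.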

How the results depend on the processing

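The number of members depended on the processing. TMM library sizes gave 92 genes, counting SAT late exercise replicates 4 and 6 gave 179 (165 of them members), and no requirement on separation gave 1771. Leaving out 1 library gave 213 to 744. A pseudocount of 1 gave 307 and a minimum of 5 CPM 274. The median SAT late difference went from -0.52 to -0.40 with TMM sizes and lay between -0.54 and -0.48 when 1 library was left out; the VAT median lay between -0.3 and -0.18. For the depots, members higher in VAT were 19 with limma voom and 19 without the atypical libraries, in place of 12, and 10 to 14 with 1 library left out; members lower in VAT ranged from 120 to 189 over all alternatives. DESeq2 called 3 genes higher after early exercise in SAT, none of them a member; in all other alternatives of the early exercise tests 0 genes were called. The early exercise change of ENSRNOG00000048953 in VAT was 0.45, and -0.28 without VAT early exercise replicate 4 (-0.28 to 1.48 with 1 library left out); the cause was not tested. With the replicate number as a replicate block, 0 members were called for early exercise in either depot, and 135 were lower and 11 higher in VAT. For early exercise this block joined control and exercised rats, which are different animals, and the labels state no link between them. Deviations of same-numbered SAT and VAT libraries of a group correlated at -0.09 to 0.24 across genes, and 13 of 24 correlated best with their own number (3 of 6 in early control, 2 in early exercise, 5 in late control and 3 in late exercise). With 6 rats and 6 libraries of each depot per group, the same rats gave both depots. The correlations are a hint that equal numbers mark the same rat, which the labels do not state. The block was therefore kept as an alternative. Chosen after seeing the data, leaving out single libraries moved the VAT late control minus early control median between -0.04 and 0.09, and the SAT difference of ENSRNOG00000004706 between -1.87 and -1.12. At the lowest total 1 count is worth 0.076 CPM, which limits the members near 1 CPM.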
